A study of Mus musculus with 6 samples.

Results

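The genes described here encode 10 receptors and adaptors through which mouse cells sense RNA and DNA. They are Ddx58, Ifih1, Dhx58, Mavs, Tmem173, Zbp1, Tlr3, Tlr7, Tlr9 and Myd88. They were chosen by name, with earlier results of these data known. Each was read from the brightest probe set that the platform annotation ties to that gene alone. All 10 were measured, each by 1 such probe set, among 22180 genes in all. Ddx58 encodes RIG-I and has the newer symbol Rigi. Tmem173 encodes STING and stands in the platform annotation as Sting1.

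Their levels were compared between tumours of B16-F1 cells, a pigmented mouse melanoma line, grown for 20 days in the dorsal flank of wild-type (WT) hosts or of hosts without Stat2 (Stat2 KO), all on a C57BL6 background. Each group held 3 tumours, and each tumour was hybridized to 1 Affymetrix array. No host age is given in the labels used here. Stat2 is missing from the host, and nothing in the labels says that it is missing from the melanoma cells, so a tumour mixes these cells with cells of the host. Whether every tumour had a mouse of its own is not stated, so p-values speak only to the spread seen among the 6 samples, which may be partly technical.

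Cells recognise foreign or misplaced nucleic acid in separate compartments. In the cytosol the helicases RIG-I, MDA5 and LGP2 bind RNA, and the first 2 pass the signal to MAVS on mitochondria, while STING relays the detection of cytosolic DNA. In endosomes TLR3, TLR7 and TLR9 bind nucleic acid that a cell has taken up, and TLR7 and TLR9 signal through MyD88. These routes lead to type I interferon, which acts through STAT2 on promoters that carry an interferon-stimulated response element (ISRE). Several of the sensors are themselves interferon-induced, and TLR7 and TLR9 are best known from plasmacytoid dendritic cells, B cells and macrophages.

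Promoters from the RefSeq table of build GRCm38.p6 were searched for 6 of the 10 genes, namely Ddx58, Ifih1, Mavs, Tlr3, Tlr9 and Myd88. The 300 bases of each, 250 before and 50 after the start, were searched on both strands for an ISRE core, GAAA followed after any 2 bases by GAAA, because STAT2 acts through this element. Ddx58, Ifih1 and Myd88 held a match, 3 of 6, whereas 3.44% of 32851 promoters of this length did. Dhx58, Zbp1, Tlr7 and Tmem173 had no usable entry and were not searched. Member entries on a chosen chromosome were skipped, whereas the background kept all chromosomes. The match lay at bases 3 to 12 after the start in Ddx58, 33 to 42 after it in Ifih1 and -40 to -31 in Myd88. The Ddx58 and Ifih1 windows are 30 bases long and run from base -8 to 22 and from base 21 to 50, and the other windows hold the 100 bases before the start, 5′ to 3′, with the ISRE core in capitals. Tlr3 is shown beside them as a gene that had low values in the same tumour as Ddx58 and Ifih1, and its window held no match.
Ifih1, chr2:62646206-62646235, minus strand: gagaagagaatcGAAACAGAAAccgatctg
Ddx58, chr4:40239804-40239833, minus strand: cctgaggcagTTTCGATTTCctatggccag
Myd88, chr9:119340019-119340118, minus strand: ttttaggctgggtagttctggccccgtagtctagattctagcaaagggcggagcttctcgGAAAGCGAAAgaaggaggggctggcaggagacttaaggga
Tlr3, chr8:45410381-45410480, minus strand: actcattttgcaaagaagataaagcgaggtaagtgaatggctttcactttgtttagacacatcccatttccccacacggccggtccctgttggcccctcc

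The Ddx58 match is the reverse complement of the letters searched. Myd88 also held the gamma-activated sequence TTCNNNGAA at bases -46 to -38, which overlaps its ISRE core, and it was the 1 member of 6 with that motif, against 8.30% of all promoters. The Tlr9 window held 0 CG dinucleotides, whereas 94.6% of all promoters held at least 1 and the windows of the other 5 members held 10 to 19. A match is a string of letters and was not tested as a binding site.

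The 3 Stat2 KO tumours had Stat2 values of 6.45, 6.48 and 6.33, and the 3 WT tumours 6.79, 6.70 and 6.70 (log2), a difference of -0.31 (SE 0.126, limma adjusted p = 0.532). Array medians over all genes ranged from 6.31 to 6.44 in Stat2 KO and from 6.27 to 6.34 in WT tumours. Pmel, which encodes a melanosome matrix protein, read 12.4 to 12.9 in Stat2 KO and 12.6 to 13.1 in WT tumours and was bright in every tumour. Detection calls were not used, and the 1105 measured olfactory receptor genes, which are not known as tumour genes, served as a yardstick of background, with a median level of 5.21.

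No member differed between host genotypes past the threshold. By limma with adjustment over all genes 0 of the 10 members passed at 0.05, where 0.00902% of all genes did, and 1 member, Tlr7, had an unadjusted p below 0.05 in the lower direction, where 3.48% of all genes did. The difference, Stat2 KO minus WT host, was below 0 for 8 members, against 46.0% of all genes. The median difference of the members was -0.19 log2 units, and that of all genes was 0.021. Genes above the 75th percentile of mean level, where 4 members lie, had a median of -0.11. Without Stat2 KO replicate 2, 5 members were below 0 and their median was -0.021, and after cyclic loess normalization of the arrays the median was -0.077 with 8 members below 0. In bulk tumours, fewer cells of a type and less RNA per cell cannot be told apart.

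**Figure D1:**
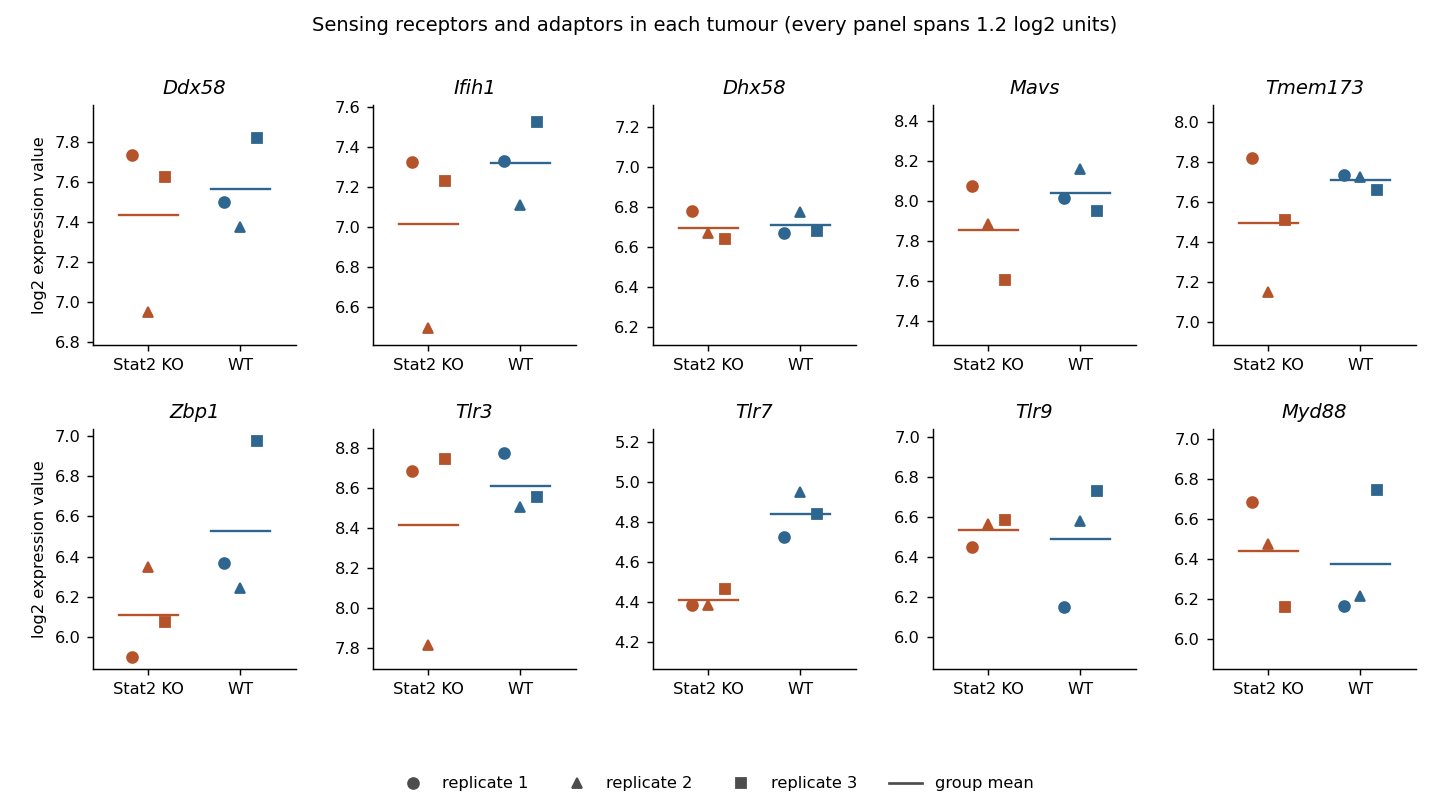
Log2 expression value (vertical axis) of each member in each of 6 tumours, by host genotype, with a line at each group mean (n = 3). Every panel spans the same range but is centred on its own gene. Tlr7 is the 1 member whose groups do not overlap, and Stat2 KO replicate 2 (triangle) is the lowest tumour for Ddx58, Ifih1, Tmem173 and Tlr3.

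Of the 3 cytosolic RNA helicases, RIG-I and MDA5 varied widely among the Stat2 KO tumours, whereas LGP2 stayed nearly level across all 6. The LGP2 gene read nearer to background than the genes of RIG-I and MDA5. Ddx58, which encodes RIG-I, a sensor of RNA with a 5′ triphosphate end, read 7.73, 6.95 and 7.62 in Stat2 KO and 7.50, 7.38 and 7.82 in WT tumours (log2, replicates 1 to 3). Stat2 KO replicate 2 lay far below the rest, and the other Stat2 KO tumours lay within the WT range. The group means were 7.44 ± 0.424 and 7.57 ± 0.229 (SD, n = 3 each), a difference of -0.13 (SE 0.202, 95% interval -0.57 to 0.31, limma adjusted p = 0.850).

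Ifih1, which encodes MDA5, a sensor of long paired RNA strands, read 7.33, 6.50 and 7.23 in Stat2 KO and 7.33, 7.11 and 7.53 in WT tumours. Stat2 KO replicate 2 was again the lowest tumour and WT replicate 3 the highest, as for Ddx58. The difference was -0.30 (SE 0.206, 95% interval -0.75 to 0.14, limma adjusted p = 0.671), with 2 of 3 Stat2 KO tumours below the WT mean. Without Stat2 KO replicate 2 the differences were 0.11 for Ddx58 and -0.044 for Ifih1, and without WT replicate 3 they were -0.0010 and -0.20. Leaving out Stat2 KO replicate 1 gave -0.28 and -0.46, and the difference of Ddx58 was -0.22 when either WT replicate 2 or Stat2 KO replicate 3 was left out. After cyclic loess the differences were -0.035 and -0.24.

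Dhx58 encodes LGP2, the relative of RIG-I and MDA5 that lacks their signalling domains and modulates them. It read 6.78, 6.67 and 6.64 in Stat2 KO and 6.67, 6.77 and 6.68 in WT tumours. The WT values, with a span of 0.102, lay inside the span of 0.142 of the Stat2 KO values, and its difference was -0.011 (SE 0.126, 95% interval -0.29 to 0.26, limma adjusted p = 0.980). Of the olfactory receptor genes 5.34% had a higher mean level than Dhx58, against 0.81% for Ddx58 and 1.45% for Ifih1. Dhx58 was thus not clearly above background, which leaves the meaning of its level values uncertain. The low value of Stat2 KO replicate 2 in the other helicase genes had no counterpart of that size here, since it lay 0.73 and 0.78 log2 units below the mean of the other Stat2 KO tumours for Ddx58 and Ifih1 (differences of -0.73 and -0.78) and differed from it by -0.043 for Dhx58.

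Mavs encodes the mitochondrial adaptor on which RIG-I and MDA5 signalling converges. It read 8.08, 7.89 and 7.60 in Stat2 KO and 8.02, 8.16 and 7.95 in WT tumours. The lowest tumour was Stat2 KO replicate 3, and the groups overlapped through Stat2 KO replicate 1. The difference was -0.19 (SE 0.151, 95% interval -0.51 to 0.14, limma adjusted p = 0.715). Leaving out Stat2 KO replicate 3 gave -0.061 and leaving out Stat2 KO replicate 1 gave -0.30, and the difference was -0.067 and -0.075 after quantile normalization and cyclic loess.

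Tmem173, the gene of the endoplasmic reticulum adaptor STING, read 7.82, 7.15 and 7.51 in Stat2 KO and 7.74, 7.73 and 7.66 in WT tumours. The WT tumours lay close together (SD 0.041), while the Stat2 KO tumours spread on both sides of them (SD 0.335). Stat2 KO replicate 1 was the highest and replicate 2 the lowest of all 6. The difference was -0.21 (SE 0.166, 95% interval -0.58 to 0.15, limma adjusted p = 0.708), and it was -0.044 without Stat2 KO replicate 2, -0.12 after cyclic loess and -0.38 when Stat2 KO replicate 1 was left out.

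Zbp1, a sensor of nucleic acid in the left-handed Z form that can start necroptosis, read 5.90, 6.35 and 6.07 in Stat2 KO and 6.37, 6.24 and 6.98 in WT tumours. All 3 Stat2 KO tumours lay below the WT mean, but Stat2 KO replicate 2 stood above WT replicate 2, so the groups overlapped. The means were 6.11 ± 0.227 and 6.53 ± 0.392 (SD, n = 3 each), and the difference was -0.42 (SE 0.194, 95% interval -0.84 to 0.0010, limma adjusted p = 0.566, exact two-sided permutation p = 0.2). WT replicate 3 carried the high value, and without it the difference was -0.20. Of the olfactory receptor genes 12.5% had a higher mean level than Zbp1.

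Tlr7 was the 1 member whose groups did not overlap. TLR7, an endosomal receptor of uridine-rich RNA, had gene values of 4.38, 4.38 and 4.46 in Stat2 KO and 4.72, 4.95 and 4.84 in WT tumours. Each Stat2 KO tumour lay below each WT tumour, an order that 5.11% of all genes showed. The means were 4.41 ± 0.047 and 4.84 ± 0.112 (SD, n = 3 each), a difference of -0.43 or 25.6% lower on the linear scale (SE 0.151, 95% interval -0.76 to -0.098, limma adjusted p = 0.509). The exact two-sided permutation p was 0.1, the smallest that 3 against 3 tumours can give. Leaving out each tumour in turn gave differences from -0.48 to -0.37. Of the olfactory receptor genes 69.9% read higher than Tlr7, so no group was shown to lie above background for this probe set, which leaves the size of the difference uncertain. Those olfactory receptor genes had a median difference of 0.22, opposite in sign.

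Tlr3, whose product binds paired RNA strands in endosomes and signals through TRIF instead of MyD88, read 8.68, 7.81 and 8.75 in Stat2 KO and 8.78, 8.50 and 8.55 in WT tumours. Stat2 KO replicate 2 stood 0.69 log2 units under the next lowest tumour, and the other Stat2 KO tumours lay within the WT range. The difference was -0.20 (SE 0.218, 95% interval -0.67 to 0.28, limma adjusted p = 0.791), and it was 0.10 without Stat2 KO replicate 2, -0.079 after cyclic loess and -0.11 without WT replicate 1. Leaving out Stat2 KO replicate 1 gave -0.33 and leaving out Stat2 KO replicate 3 gave -0.36.

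Tlr9, the receptor of DNA rich in unmethylated CpG, read 6.45, 6.56 and 6.59 in Stat2 KO and 6.15, 6.58 and 6.73 in WT tumours. The Stat2 KO values lay inside the WT range. The difference was 0.046 (SE 0.160, 95% interval -0.30 to 0.39, limma adjusted p = 0.936), and it was -0.021 after median centring of the arrays. Tlr9 had a lower mean level than 8.33% of the olfactory receptor genes.

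Myd88, the adaptor of TLR7, TLR9 and most other Toll-like receptors, read 6.68, 6.48 and 6.16 in Stat2 KO and 6.17, 6.21 and 6.74 in WT tumours. Each group held values near both ends of the range. The difference was 0.065 (SE 0.184, 95% interval -0.34 to 0.47, limma adjusted p = 0.926), and it was -0.029 after a further quantile normalization. Myd88 had a lower mean level than 10.4% of the olfactory receptor genes. For 9 of the 10 members the 95% interval held 0.

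**Figure D2:**
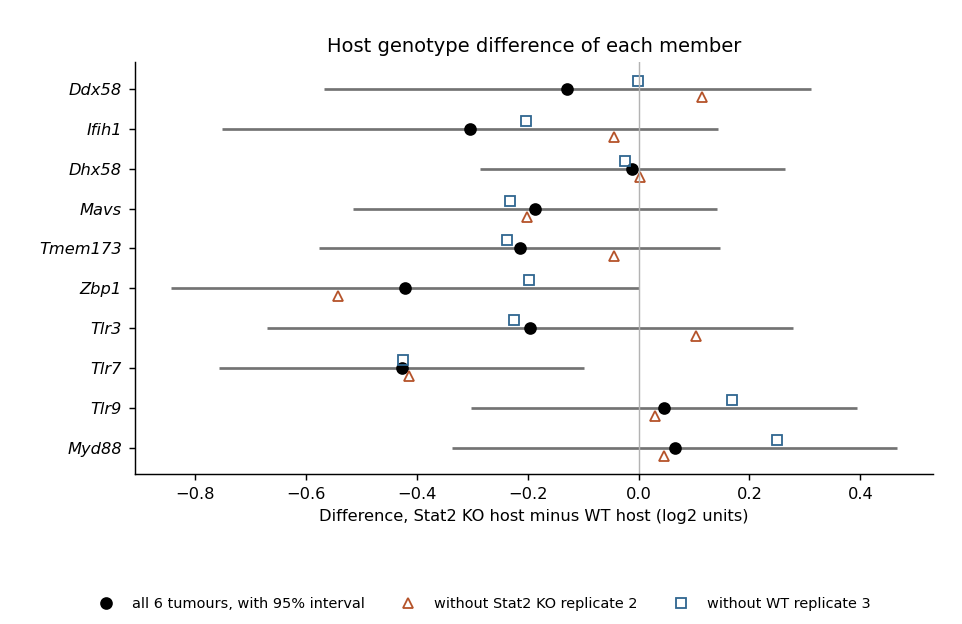
Difference between Stat2 KO and WT hosts for each member (horizontal axis, log2 units; black points with 95% intervals from limma, 3 tumours a side), with the values obtained when Stat2 KO replicate 2 or WT replicate 3 is left out. Leaving out Stat2 KO replicate 2 brings Ifih1 and Tmem173 to -0.044 and turns Ddx58 and Tlr3 above 0, while Tlr7 stays at -0.41.

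The members did not vary as 1 block across the tumours. Ddx58, Ifih1, Tmem173 and Tlr3 had their lowest value in Stat2 KO replicate 2, where 22.7% of all genes did, and deviated there by -0.55, -0.67, -0.45 and -0.70 from the mean of all 6 tumours. After quantile normalization and after cyclic loess 6 members had their lowest value in that tumour, these 4 with Dhx58 and Tlr7, against 22.1% and 21.6% of all genes. In the values as deposited, Dhx58, Mavs, Zbp1, Tlr9 and Myd88 read within 0.07 of their mean in that tumour. WT replicate 3 held the highest value of 5 members, namely Ddx58, Ifih1, Zbp1, Tlr9 and Myd88, where 12.3% of all genes had theirs.

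**Figure D3:**
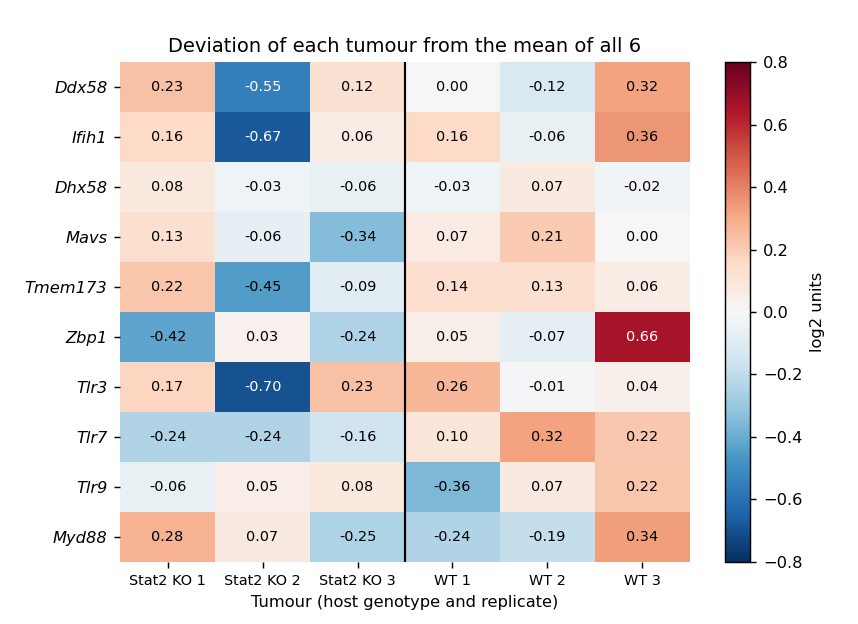
Deviation of each member (rows) in each tumour (columns) from that gene's mean over all 6 tumours, in log2 units, with the value printed in each cell. Stat2 KO replicate 2 is low for Ddx58 (-0.55), Ifih1 (-0.67), Tmem173 (-0.45) and Tlr3 (-0.70), and WT replicate 3 is highest for Zbp1 (0.66).

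By mean deviation, markers of melanocytes, fibroblasts, endothelial cells and macrophages also read low in Stat2 KO replicate 2. Markers of several other immune cells did not. That tumour was the lowest of the 6 for 11 of 12 melanocyte and 5 of 8 fibroblast markers, against 22.7% of all genes. It was also the lowest for 3 of 8 endothelial markers and for 3 of 14 macrophage markers, the latter near that share. For these lists, in that order, the mean deviations in that tumour were -0.372, -0.423, -0.215 and -0.179. The macrophage list was lower still in Stat2 KO replicate 1, at -0.252. Stat2 KO replicate 2 was the lowest for 0 conventional dendritic cell, B cell and T cell markers and 1 of 10 neutrophil markers. Their mean deviations in it were 0.21, 0.13, 0.16 and 0.14. The summed level of the melanocyte markers was 15.5, 15.0 and 15.4 in Stat2 KO and 15.5, 15.4 and 15.2 in WT tumours (log2 of the sum of linear values). That of the fibroblast markers was 10.1, 9.59 and 9.85 in Stat2 KO and 10.3, 10.3 and 10.2 in WT tumours. After cyclic loess Stat2 KO replicate 2 was the lowest tumour for 8 of the 12 melanocyte markers. The part of these markers in the low values of Ddx58, Ifih1, Tmem173 and Tlr3 was not tested.

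Cells known for endosomal receptors were read through their own markers. Of 14 measured macrophage markers 13 had a difference below 0 and 0 passed the adjusted threshold, with a median of -0.25. Their summed level ranged from 10.4 to 10.5 in Stat2 KO and from 10.6 to 10.9 in WT tumours. Cd68, a lysosomal glycoprotein of macrophages, differed by -0.61 (SE 0.163, limma adjusted p = 0.449), Csf1r by -0.29, Adgre1 by -0.21 and Mertk by -0.16. Csf1r and Mertk differed by -0.14 and -0.075 without WT replicate 1 and by -0.50 and -0.27 without WT replicate 3. Adgre1 differed by -0.089 without Stat2 KO replicate 2. Leaving out WT replicate 2 gave -0.13 for Adgre1, and leaving out Stat2 KO replicate 3 gave -0.36. These markers differed in the same direction as Tlr7, and their part in its difference was not tested.

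Plasmacytoid dendritic cell markers had 4 of 9 members below 0 and a median of 0.025, with summed levels from 9.60 to 9.77 in Stat2 KO and from 9.66 to 9.75 in WT tumours. Siglech, a lectin of these cells, differed by 0.078 as deposited and by -0.026 after cyclic loess. B cell markers had 2 of 9 below 0 and a median of 0.10, with summed levels from 8.89 to 9.07 and from 8.81 to 8.99. Conventional dendritic cell, T cell and neutrophil markers had 1 of 9, 1 of 8 and 1 of 10 below 0, with medians of 0.17, 0.12 and 0.13, and summed levels of 9.73 to 10.2, 8.85 to 9.09 and 8.87 to 8.98 in Stat2 KO against 9.93 to 10.1, 8.77 to 8.90 and 8.72 to 8.89 in WT tumours. Endothelial markers had 4 of 8 below 0, a median of 0.027 and summed levels of 9.60 to 10.05 and 9.96 to 10.03, and fibroblast markers had 7 of 8 below 0 and a median of -0.36. No marker stood at 0, since the values are on a log2 scale, and the lowest marker value was 3.39 in the neutrophil list.

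**Figure D4:**
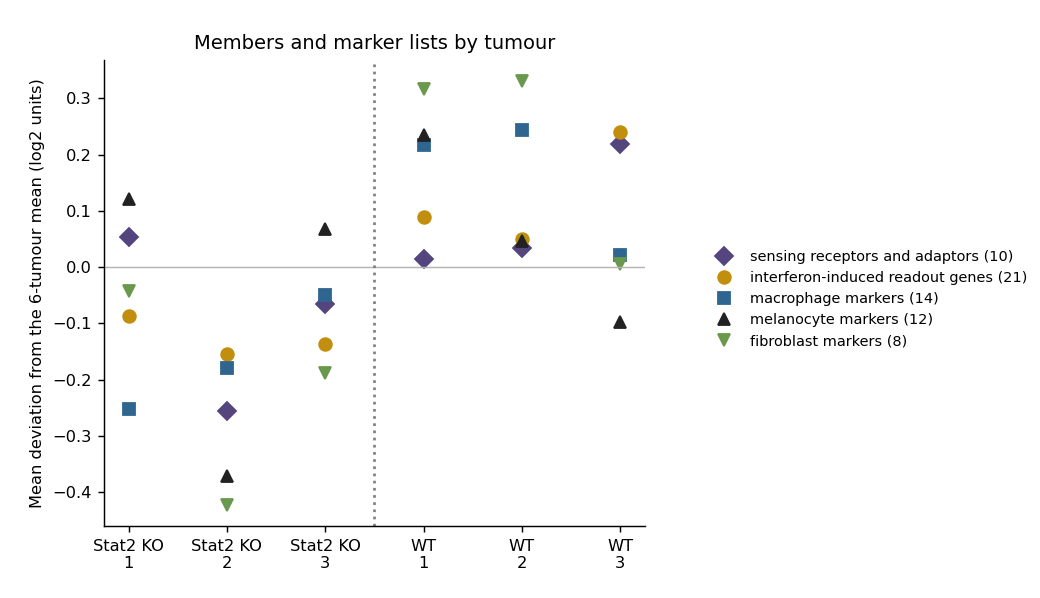
Mean deviation of the members and of 4 gene lists from the mean of all 6 tumours (vertical axis, log2 units), by tumour, with the number of genes in brackets. The members read lowest in Stat2 KO replicate 2 (-0.26) and highest in WT replicate 3 (0.22), and macrophage markers lie below 0 in all 3 Stat2 KO tumours and above 0 in all 3 WT tumours.

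The signal chain behind the RNA sensors was mostly below 0 in its differences. Of 22 measured genes 16 were below 0, 0 passed the adjusted threshold in either direction, and the median was -0.13, against 0.021 over all genes. Trim25, a ubiquitin ligase linked to RIG-I activation, read 7.23, 6.72 and 7.10 in Stat2 KO and 7.51, 7.31 and 7.57 in WT tumours, a difference of -0.45 (SE 0.158, limma adjusted p = 0.509). Rnf135, which encodes Riplet, a further ubiquitin ligase of RIG-I, read 6.32, 6.26 and 6.25 against 6.52, 6.55 and 6.72, a difference of -0.32 (SE 0.128, limma adjusted p = 0.525). Zc3hav1, an antiviral protein that binds CpG-rich RNA, differed by -0.46 and the kinase gene Tbk1 by -0.35, with limma adjusted p-values of 0.537 and 0.607. The groups of Trim25, Rnf135 and Zc3hav1 did not overlap, 3 of 22 in the lower direction against 5.11% of all genes. In the higher direction 1 of 22 did not, against 8.23% of all genes, and this was Nlrx1, named after its value was seen, at 0.17. Without Stat2 KO replicate 2 the differences of Trim25, Zc3hav1 and Tbk1 were -0.30, -0.23 and -0.23, and that of Tbk1 was -0.19 without WT replicate 1 and -0.53 without WT replicate 3. The list's median was -0.060 after cyclic loess and -0.057 without WT replicate 1.

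Among genes around the endosomal receptors, 18 of 23 measured were below 0 with a median of -0.049, 0 passed the adjusted threshold, and the groups of Ctss, Lgmn and Tlr13 did not overlap, 3 of 23 in the lower direction against 5.11% of all genes. Ctss, the gene of the lysosomal protease cathepsin S, read 6.64, 6.81 and 6.73 in Stat2 KO and 7.85, 7.45 and 7.64 in WT tumours, a difference of -0.92 (SE 0.143, limma adjusted p = 0.133). Lgmn, the gene of the protease legumain, which can cleave TLR9, differed by -0.51 (SE 0.142, limma adjusted p = 0.460). Tlr13, the endosomal receptor of bacterial ribosomal RNA, read 5.67, 5.69 and 5.77 in Stat2 KO and 6.07, 6.43 and 6.12 in WT tumours. Its difference of -0.50 (SE 0.142, limma adjusted p = 0.460) had the sign of that of Tlr7. Tab2, which links TRAF6 to the kinase TAK1, differed by -0.35. Leaving out Stat2 KO replicate 1 gave a median of -0.16, leaving out Stat2 KO replicate 3 gave -0.013, and leaving out WT replicate 3 gave -0.14.

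Among genes of cytosolic DNA sensing and necroptosis, 11 of 14 measured were below 0, with a median of -0.12, and 1 passed the adjusted threshold. That gene was Ifi204, an Ifi200 family member linked to DNA sensing upstream of STING, at -1.75 (SE 0.200, limma adjusted p = 0.0298), and its call was lost without Stat2 KO replicates 1 or 2 or WT replicates 1 or 2 (adjusted p = 0.169, 0.0734, 0.109 and 0.130) and after quantile normalization (adjusted p = 0.0558), with a range of 0.0058 to 0.169 over the alternatives, while the difference stayed between -1.91 and -1.58. Its values of 2.79 to 3.45 and 4.84 to 4.99 lay below the olfactory receptor median of 5.21, so the size of its difference is uncertain. Samhd1, which degrades deoxynucleotides, differed by -0.46 and Rnaseh2b, a subunit of an enzyme that removes RNA from DNA, by -0.37, with limma adjusted p-values of 0.490 and 0.574, and Rnaseh2b by -0.18 without Stat2 KO replicate 2. Ripk3, the necroptosis kinase that Zbp1 engages, differed by 0.23. The list's median was -0.077 after cyclic loess and -0.073 without WT replicate 1.

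Other Toll-like receptors and their partners, at the cell surface except for Tlr11 and Tlr12, were divided. Of 10 genes 5 were below 0 and 0 passed the adjusted threshold, and the median of 0.043 was -0.0054 after cyclic loess. Tlr12 and Tlr11, a pair of receptors of a parasite profilin, differed by 0.36 and 0.31, Tlr5, the flagellin receptor, by 0.19 and Cd180 by -0.25, with limma adjusted p-values from 0.517 to 0.694. The median was -0.056 without WT replicate 1 and 0.14 without WT replicate 3. Cd180 and Tlr5 differed by -0.13 and 0.11 without WT replicate 1, and Tlr11 by 0.16 without Stat2 KO replicate 3.

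Interferon-induced genes downstream of these sensors had 16 of 21 differences below 0, a median of -0.26 and 0 genes past the adjusted threshold, with 8 lower and 1 higher at an unadjusted p below 0.05, against 3.48% and 5.34% of all genes. Stat2, the gene missing from the hosts, belongs to this list and counts among the 16 and among the 8. The higher gene, named after its value was seen, was the interferon gene Ifna4, at 0.38 (SE 0.171, limma adjusted p = 0.558), and it has close paralogs whose transcripts its probe set may also read. Its difference was 0.19 without WT replicate 2. Cmpk2, a mitochondrial nucleotide kinase, differed by -0.91, the chemokine gene Cxcl10 by -0.82, Rsad2, the viperin gene, by -0.73 and Ifit1, which binds viral RNA, by -0.59, with limma adjusted p-values from 0.204 to 0.462. The median of the list was -0.11 without WT replicate 3. Among sensor genes that are also interferon-induced, differences were -0.13 (Ddx58), -0.30 (Ifih1), -0.011 (Dhx58) and -0.42 (Zbp1). These are not every member that interferon can induce, and Myd88, which held an ISRE core, differed by 0.065. The gap between the members and the list was not tested.

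**Figure D5:**
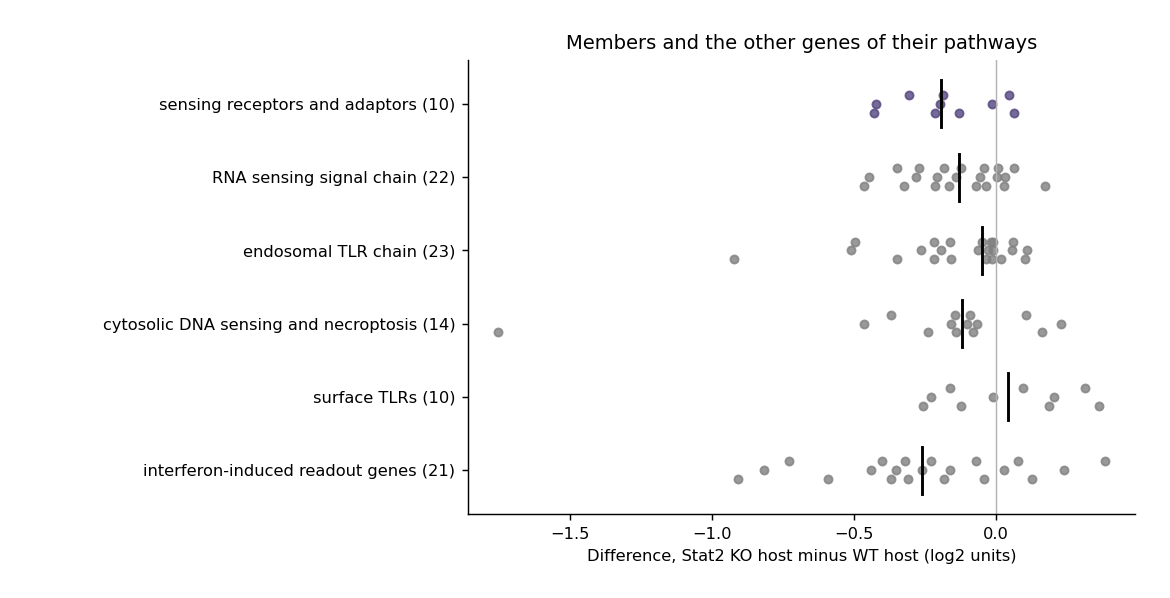
Difference between Stat2 KO and WT hosts (horizontal axis, log2 units) of every measured gene in the member set and in 5 lists around it, 1 point a gene, with a black bar at each median and the number of genes in brackets. The members run from -0.43 (Tlr7) to 0.065 (Myd88), and the point near -1.75 is Ifi204, whose probe set was not shown to read above background. The list labelled surface TLRs also holds Tlr11 and Tlr12, which are not surface receptors.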

How the data were processed

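Total RNA of 6 tumours was hybridized to Affymetrix arrays. The authors deposited log2 values, and for their making the submitters' processing notes list RMA and Affymetrix Expression Console 1.3.1. The genome build was not given in the sources used here. Of 41345 probe sets 23521 named 1 gene, 1814 several and 16010 none, and each gene was read from its brightest probe set of its own. The number of arrays limits the precision, and 0 pairs of arrays held identical values.

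Differences, SEs and 95% intervals came from limma 3.58.1 in R 4.3.3 (lmFit, eBayes with an intensity trend), two-sided, with Benjamini-Hochberg adjustment over 22180 genes and a threshold of 0.05. Exact permutation used scipy 1.17.1. On simulated data for this comparison, with 22180 genes, the procedure recovered 69 of 100 genes changed by -1 and 100 of 100 changed by -2 log2 units, with 7 false among 176 calls. Each gene was simulated independently of the others, and no smaller change was planted. These rates may therefore not hold for the measured arrays or for differences as small as those of the members.

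The members and lists were chosen with earlier results of these data known. Named beside the members were Stat2, up to 4 genes of each pathway list with the smallest p and any past the threshold, and up to 4 leading markers of selected cell types. Lists were described by counts and medians, with no set test. Of the list genes, those without a probe set of their own were not analysed here. The alternatives were a replicate block, quantile, median and cyclic loess normalization, brighter genes only, the mean of all probe sets, no trend, array weights and each array left out.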

Additional observations from a re-analysis of the deposited data

How the results depend on the processing

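No member passed the adjusted threshold under any of the 14 alternatives, and the smallest adjusted p of a member was 0.097, for Tlr7 with array weights (range for Tlr7 0.097 to 0.908). The array weights were 2.475 for Stat2 KO replicate 3, 2.253 for WT replicate 2 and 0.51 to 0.878 for the rest. Results with array weights therefore rest mostly on 1 tumour a side. Tlr7, Zbp1, Ifih1, Mavs and Tmem173 kept their sign under every alternative that measured them. Tlr7 and Zbp1 were left out among genes brighter than the median gene. The count of genes called was 2, and it was 0 after quantile normalization, 1 after cyclic loess, 1 without the intensity trend, 257 with array weights, and 0 to 17 with 1 array left out. With 1 array left out, members below 0 numbered 5 to 10 and their median ran from -0.31 to -0.021, with 5 and -0.021 both without Stat2 KO replicate 2. Ddx58 was 0.060 and Tlr3 0.027 with array weights, and they ran from -0.28 to 0.11 and from -0.36 to 0.10 with 1 array left out. Dhx58 ran from -0.054 to 0.021 in the same way. Tlr9 was -0.00080 after quantile normalization and -0.021 after median centring, and ran from -0.12 to 0.17. Myd88 was -0.029, -0.0014 and -0.011 after quantile normalization, median centring and with array weights, and ran from -0.057 to 0.25. Siglech was -0.020 after quantile normalization and -0.026 after cyclic loess, and ran from -0.00040 to 0.20. With array weights Ctss, Lgmn, Cmpk2 and Cd68 passed (adjusted p = 0.0224, 0.0406, 0.0285 and 0.037, with upper ends over the alternatives of 0.522, 0.908, 0.534 and 0.904). The cause of these changes was not tested. At an unadjusted p below 0.05, genes lower and higher numbered 771 and 1185, but 1083 and 715 after median centring and 846 and 820 after quantile normalization.

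Same-numbered tumours correlated in their deviations by 0.24, 0.079 and 0.030. Tumours of different number were not compared in this way, so a link behind the numbers was not tested. With the replicate block 3 genes and 0 members were called, and the smallest adjusted p of a member was 0.377.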
